A study of Mus musculus with 10 samples.

Results

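miR-26a and miR-26b are the guide strands of the miR-26 family, and their levels were followed here in proliferating C2C12 myoblasts, an established mouse muscle precursor line derived from strain C3H. The members were chosen by name, as mmu-miR-26a and mmu-miR-26b, with star strands left out. They are 2 of the 375 miRNA assays of TaqMan Array A, a qPCR card that carries 1 assay per well, and 2 of the 617 mouse miRNA probes of a microarray, where each is printed as 5 spots. Array B, with 209 miRNA assays, holds neither member. It does hold miR-26b*, the opposite strand of the miR-26b hairpin, which is described at the end for comparison.

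Every one of the 10 samples was an aliquot of 1 RNA sample from untreated cells, so the spread between them is technical and says nothing of other cultures. Reverse transcription reaction 2 (RT2) and reaction 1 (RT1), each from 500 ng of RNA, were run on Array A cards on day 2 and again on day 1, which gives 4 cards. Array B was run on 2 cards with pre-amplification, a limited round of PCR before the card, and on 2 cards without it. The 2 microarrays each received 8 µg of RNA. The study asked how far such repeats differ and whether both platforms give the same picture.

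miR-26 is a conserved vertebrate family whose members lie in introns of the genes for small phosphatases that act on the C-terminal domain of RNA polymerase II (Ctdsp genes). A miRNA guide strand directs the silencing complex to messenger RNAs that pair with its seed, the bases near its 5′ end, so guides with the same seed share most of their predicted targets. In C2C12 cells miR-26a is known to rise as myoblasts differentiate and to repress Ezh2, a histone methyltransferase that keeps muscle genes silent.

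The mature sequences show how little separates the members. They were taken from RefSeq (GRCm38.p6), 5′ to 3′, with the seed, bases 2 to 8, in capitals.
miR-26a: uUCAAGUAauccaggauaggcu
miR-26b: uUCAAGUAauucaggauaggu
Both carry the seed UCAAGUA. No other name among the 1679 mature mouse miRNA names in the RefSeq table or the 617 microarray targets carries it. The same 2 guides are given again with the bases that differ in capitals.
miR-26a: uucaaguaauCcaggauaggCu
miR-26b: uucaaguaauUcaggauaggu
Counted from the 5′ end of miR-26a, the difference within the guide is C11U, and the C at position 21 of miR-26a is missing from miR-26b. miR-26a is 22 bases long with 40.9% G and C, and miR-26b is 21 bases long with 33.3%. On the microarray both targets were identical to these sequences, and the next nearest target differed by 9 bases from miR-26a (miR-337-3p) and by 8 bases from miR-26b (miR-499).

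miR-26a is encoded by 2 hairpins that give the same guide, so neither platform can tell which of them was the source. Mir26a-1 lies at chr9:119031796-119031885 within Ctdspl (chr9:118926536-119044119), with its guide at chr9:119031811-119031832. Mir26a-2 lies at chr10:126995530-126995613 within Ctdsp2 (chr10:126978717-126999975), with its guide at chr10:126995543-126995564. Mir26b lies at chr1:74394310-74394394 within Ctdsp1 (chr1:74391609-74397285), with its guide at chr1:74394324-74394344. Each of the 3 hairpins is on the plus strand, within its host gene.

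Both members were detected on every Array A card and on both microarrays. On Array A the limit of detection was a mean Ct of 35, Ct being the cycle at which the product crosses the threshold, so that a lower Ct means more template. By that limit 182 miRNA assays were detectable (mean at or below it), and single cards had 188 to 195 assays at or below it. The skeletal muscle markers miR-133a, miR-133b and miR-486 were detectable (3 of the 5 on Array A, and 4 of 6 muscle markers on the microarray). Mouse miR-1 and miR-499 missed the limit in the mean, at 35.4 each, with undetermined wells counted as 40. Their lowest wells, at 31.8 and 32.6, were within it. The separate rat assay for miR-1 on the same cards was detectable, at a Ct of 30.20 to 31.97. Of markers of other cells, 3 of 3 for blood, 1 of 2 for neurons, 1 of 1 for endothelium and 1 of 1 for pancreas were detectable on Array A, and 0 of the same markers on the microarray. Markers of liver, epithelium and embryonic stem cells were detectable on neither. The study lists the markers of blood, endothelium and pancreas, like miR-133a, at a mean Ct above 30 and up to 35. It lists miR-133b, miR-486 and the neuron marker above 25 and up to 30.

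miR-26a was among the miRNAs with a low mean Ct on Array A. Its Ct was 26.96 on day 2 and 26.91 on day 1 for RT2, and 26.86 on day 2 and 26.68 on day 1 for RT1. The lowest Ct belonged to the RT1 card of day 1, and the other 3 cards lay close to each other. The mean was 26.85 ± 0.12 (SD, n = 4 cards), rank 22 of 182, and 88.4% of the other detectable assays had a higher mean Ct.

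miR-26b came about 1 cycle later. Its Ct was 28.09 on day 2 and 27.89 on day 1 for RT2, and 28.09 on day 2 and 27.96 on day 1 for RT1. Both day 2 cards were above both day 1 cards in raw Ct. The mean was 28.01 ± 0.10 (SD, n = 4 cards), rank 43 of 182, with 76.8% of the other detectable assays at a higher mean Ct.

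MammU6, the U6 small nuclear RNA used as endogenous control, had Ct values of 19.58 and 19.61 for RT2 on days 2 and 1, and 19.77 and 19.57 for RT1 on days 2 and 1. The RT1 card of day 2 was the highest of the 4. After subtraction of the MammU6 Ct (ΔCt), miR-26a had 7.38 and 7.30 for RT2 on days 2 and 1, and 7.09 and 7.11 for RT1 on days 2 and 1. miR-26b had ΔCt values of 8.51 and 8.28 for RT2 on days 2 and 1, and 8.32 and 8.39 for RT1 on days 2 and 1. The subtraction removed the day order of miR-26b, whose extremes were both RT2 cards. Mean ΔCt was 7.22 ± 0.14 for miR-26a and 8.37 ± 0.10 for miR-26b (SD, n = 4 cards).

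**Figure D1:**
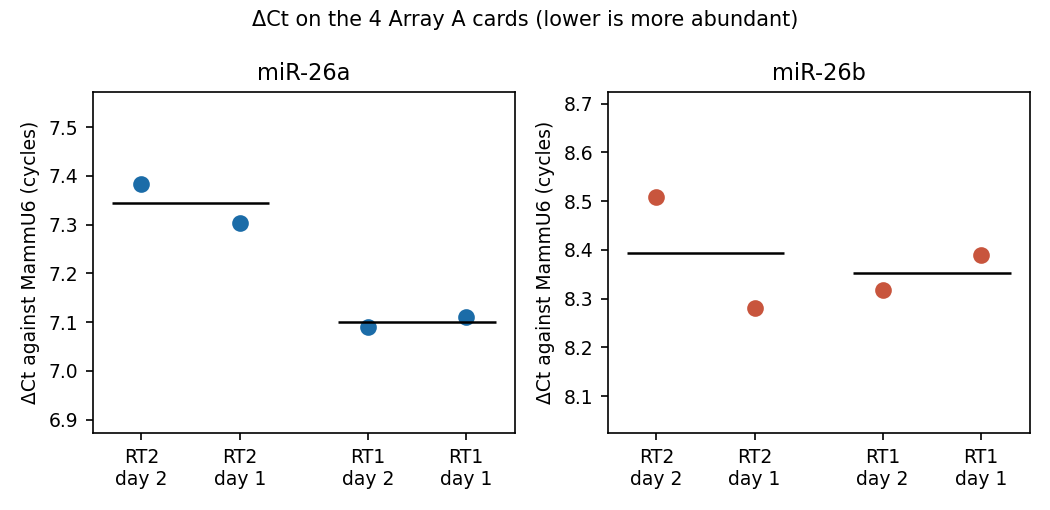
Ct minus MammU6 (ΔCt, cycles, lower means more template) of miR-26a and miR-26b on each of the 4 Array A cards, with RT2 to the left of RT1 and lines for the mean of each reaction. The RT2 cards of miR-26a sit above its RT1 cards, while those of miR-26b overlap.

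The 2 members kept their order on each card. The Ct of miR-26a minus that of miR-26b was -1.13 on day 2 and -0.98 on day 1 for RT2, and -1.23 on day 2 and -1.28 on day 1 for RT1. The smallest gap was on the RT2 card of day 1, and it was still larger than the range of either member over the 4 cards (0.28 for miR-26a and 0.21 for miR-26b). The mean difference was -1.15 ± 0.13 (SD, n = 4 cards), with a 95% interval of -1.36 to -0.94 that takes the cards as independent. The cards are repeat runs of 2 reactions, whose mean gaps were -1.05 for RT2 and -1.25 for RT1. With each reaction as 1 value the mean was the same and the 95% interval was -2.43 to 0.13 (n = 2 reactions), which includes 0. miR-26a had the lower Ct on 4 of 4 cards, and an exact two-sided sign-flip permutation test over cards gave p = 0.13, the smallest that 4 cards allow. If each assay doubled its product in every cycle, the difference would be 2.22-fold (95% interval 1.92 to 2.57 over cards). Differences in efficiency between the 2 assays were not measured here, and MammU6 cancels within a card.

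Many miRNAs had a Ct close to that of each member, which is not a shared level, since assays may differ in efficiency. In mean Ct 20 assays lay between miR-26a and miR-26b. miR-221 (26.85) and miR-27a (26.86) were the neighbours of miR-26a, and miR-574-3p (27.98) and miR-301a (28.06) were those of miR-26b. miR-26a overlapped both of its neighbours in its range over cards, so their order was not resolved. miR-30c, at rank 20 with a mean of 25.96, was the nearest assay ahead of miR-26a that did not overlap it.

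The Ct values of Array A were not spread evenly along the scale. Over the 4 cards 47.7% of the 765 wells at or below the limit had a Ct whose decimal part was 0.8 or more, against 20% for an even spread. Among detectable miRNAs 0 had a mean Ct from 26 up to 26.8 and 12 had one from 26.8 up to 27, the window that holds miR-26a. Likewise 0 lay from 27 up to 27.6 and 12 from 27.6 up to 28.2, the window that holds miR-26b. For miR-26a 3 of its 4 wells and for miR-26b 2 of its 4 wells had a decimal part of 0.8 or more. The part of this bunching in the gap between the members, in their neighbours and in their spread was not tested.

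The miRNAs most like each member were ranked by the mean absolute difference in ΔCt over the 4 cards. For miR-26a they were miR-199a-3p (0.016 cycles), miR-27a (0.041) and miR-182 (0.07), with mean ΔCt values of 7.23, 7.23 and 7.23. For miR-26b they were let-7i (0.081), miR-365 (0.10) and miR-29c (0.11), with mean ΔCt values of 8.30, 8.27 and 8.27. The range of each of the 6 overlapped that of its member, which the choice by likeness on the same cards makes likely. On the microarray 4 of the 6 passed the detection limit on both arrays. miR-199a-3p gave a mean signal of 3074 on array 2 and 3124 on array 1, miR-27a gave 1182 and 2047, miR-182 gave 412 and 581, and let-7i gave 3257 and 4032, in the same order of arrays. miR-365 (19.5 on array 2 and 16.5 on array 1) and miR-29c (13.4 on array 2 and 9.67 on array 1) were under the limit.

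Between reverse transcription reactions, neither member passed the test. Each group holds repeat runs of the same reaction, so the test compares these reactions only. Its SE and interval measure the spread between runs, not between reactions. For miR-26a the RT2 cards averaged a ΔCt of 7.34 and the RT1 cards 7.10, and the reactions did not overlap in ΔCt or in raw Ct. The difference of 0.24 cycles (SE 0.14, 95% interval -0.17 to 0.65) had an adjusted p of 0.841 in limma. It was 0.29 cycles on day 2 and 0.19 on day 1. Such separation was common, since 36.3% of the 182 detectable miRNAs did not overlap between reactions and 30.2% did so with RT2 higher.

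For miR-26b the RT2 cards averaged a ΔCt of 8.39 and the RT1 cards 8.35, and the reactions overlapped. The difference was 0.04 cycles (SE 0.16, 95% interval -0.44 to 0.53, adjusted p 0.922 in limma). By day it was 0.19 cycles on day 2 and -0.11 on day 1, so the sign was not the same on both days. Over all detectable miRNAs limma called 4 of 182 (2.20%), 2 with a higher (1.10%) and 2 with a lower ΔCt in RT2, and 8 had an unadjusted p under 0.05. With the day as a replicate block 1 miRNA was called, and with any 1 card left out 0 or 1.

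The direction for miR-26b depended on the control. MammU6 itself was 0.08 cycles lower in RT2 (difference -0.08), while U87, Y1, snoRNA135 and snoRNA202 were higher by 0.18, 0.17, 0.04 and 0.12 cycles. The median difference of all 182 miRNAs was 0.12 cycles with MammU6, 0.04 in raw Ct, -0.09 with the mean of the other 4 controls and 0.01 after subtraction of the card mean. On the same 3 alternative scales miR-26a had differences of 0.16, 0.04 and 0.13 cycles. miR-26b had -0.04, -0.16 and -0.07 cycles. Relative to the median, with MammU6, miR-26a lay above it and miR-26b below it, by less than 1 SE of either.

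Between days, the differences were smaller than the spread. On day 2 miR-26a averaged a ΔCt of 7.24 and on day 1 it averaged 7.21, a difference of 0.03 cycles (SE 0.21, 95% interval -0.59 to 0.65, adjusted p 0.994 in limma). miR-26b averaged 8.41 on day 2 and 8.34 on day 1, a difference of 0.08 cycles (SE 0.19, 95% interval -0.47 to 0.62, adjusted p 0.994 in limma). The days overlapped for both members in ΔCt, while 49 of the 182 miRNAs (26.9%) were separated. limma called 0 of 182 (0%), with 8 at an unadjusted p under 0.05, and the methods' t-test passed 1 at its own threshold. The intervals still allow a shift of more than 0.5 cycle in either direction for miR-26a. No day was repeated, so the test compares these days only.

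The spread of the members between cards was close to that of other miRNAs of like Ct. miR-26a ranked 52 and miR-26b 37 of 182 by SD of raw Ct, counted from the smallest. Among the 79 detectable miRNAs with a mean Ct above 25 and up to 30, miR-26a ranked 40, the middle rank, and miR-26b 26. The median SD, 0.12 cycles, was therefore that of miR-26a itself. By SD of ΔCt they ranked 39 and 16 of the 79, with a median SD of 0.15. Without the RT1 card of day 1 the raw Ct SD of miR-26a was 0.05 cycles, so its spread came mainly from that card.

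**Figure D2:**
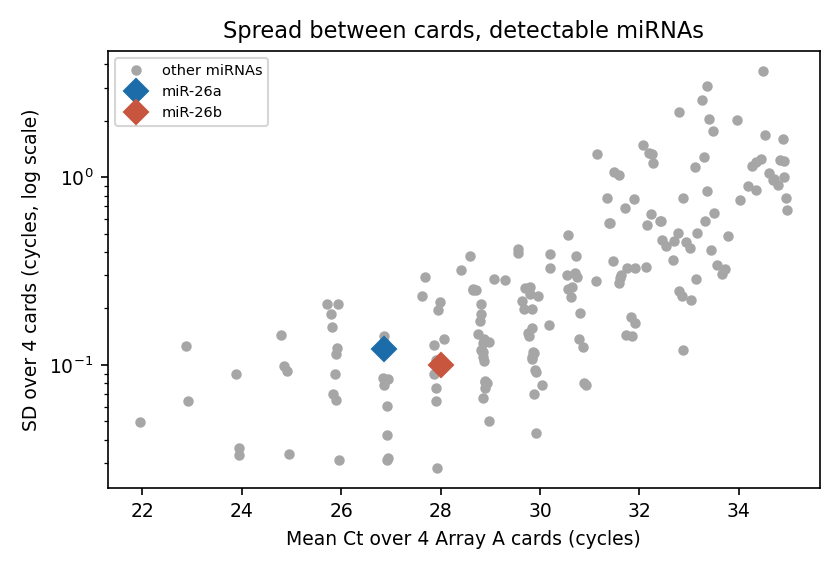
SD of raw Ct over the 4 Array A cards against mean Ct (both in cycles, the SD on a log axis) for each of the 182 detectable miRNAs, with miR-26a and miR-26b marked. Both sit among miRNAs of like Ct, at SDs of 0.12 and 0.10, and the points fall in vertical bands along the Ct axis.

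On the microarray miR-26a repeated closely. The signal is the scanner intensity minus background as deposited, with a miRNA called detectable at a mean of 32 or more on both arrays. The 5 spots of miR-26a gave 4181, 3763, 3438, 3691 and 4243 on array 2, and 4222, 3715, 3941, 4280 and 4669 on array 1. The spots of both arrays overlapped. The mean was 3863 ± 341 on array 2 and 4165 ± 362 on array 1 (SD, n = 5 spots each), rank 16 and rank 15 of 617 probes.

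The signal of miR-26b differed between the arrays. Its 5 spots gave 481, 353, 256, 320 and 493 on array 2, and 178, 113, 138, 195 and 229 on array 1. Each spot on array 2 was brighter than each spot on array 1, which was so for 14.6% of the 137 miRNAs detectable on both arrays (27.0% in either direction). The mean was 381 ± 103 on array 2 and 170 ± 46.0 on array 1 (SD, n = 5 spots each), rank 48 and rank 66 of 617. Array 2 over array 1 was 2.23 for miR-26b and 0.927 for miR-26a, before normalization between arrays.

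The spread between spots had the same shape for both probes. Relative to its mean, the SD of the spots was 0.0883 on array 2 and 0.0868 on array 1 for miR-26a, and 0.271 on array 2 and 0.270 on array 1 for miR-26b. At each place the probes were printed in adjacent rows of the same column. The fifth spot was the brightest of each probe on both arrays. The dimmest was the third spot on array 2 and the second on array 1, again for both probes. The test between the arrays was therefore repeated with the place of the spot as a block, a choice made after these values were seen.

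**Figure D3:**
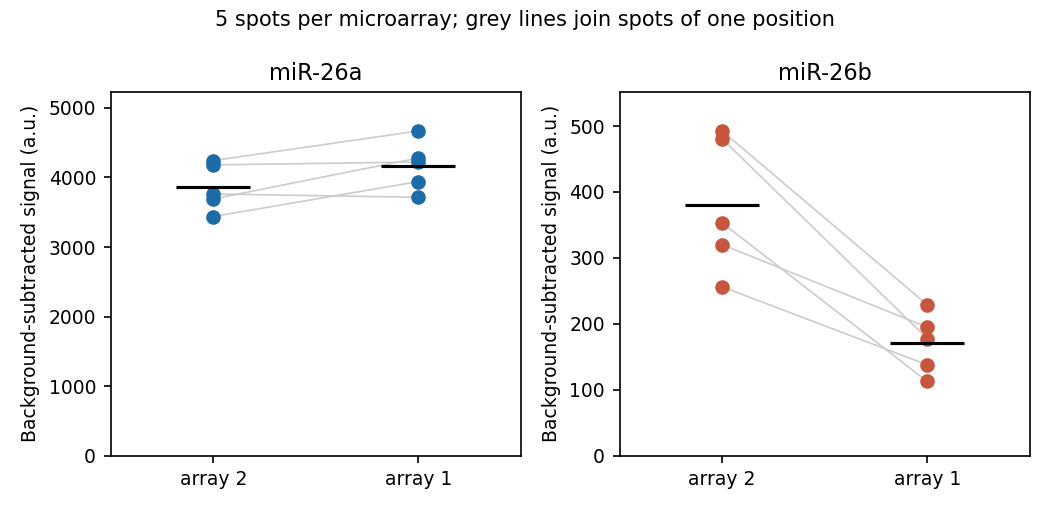
Deposited signal (scanner units, linear axis from 0) of each of the 5 spots of miR-26a and miR-26b, with array 2 to the left of array 1, black lines for the means and grey lines joining spots of the same position. The arrays overlap for miR-26a and separate for miR-26b, where array 2 runs from 256 to 493 and array 1 from 113 to 229.

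After normexp background correction and loess between arrays, miR-26a stood at 11.99 ± 0.12 on array 2 and 11.99 ± 0.13 on array 1 in log2 intensity (SD, n = 5 spots each). Array 2 minus array 1 was 0.0034 (SE 0.081, 95% interval -0.17 to 0.18, adjusted p 0.989 in limma). miR-26b stood at 8.89 ± 0.34 on array 2 and 7.82 ± 0.28 on array 1, a difference of 1.07 (SE 0.17, 95% interval 0.70 to 1.43, adjusted p 0.00028 in limma), or 2.10-fold. The test compares these 2 chips and not conditions, since spots of 1 chip are not samples. limma called 53 of the 137 miRNAs (38.7%), 32 higher (23.4%) and 21 lower on array 2, so a call alone was common.

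The size of the difference for miR-26b was less common than the call. It ranked 9 of 137 by absolute difference, and miR-26a ranked 134. Of the 20 detectable miRNAs nearest to miR-26b in intensity 10 were called, and their differences ran from -0.32 to 0.88 with a median absolute value of 0.24. The difference for miR-26b was 0.89 after quantile normalization and 0.91 without normalization between arrays. It was 1.21 from the deposited background-subtracted signal, and it was called under each. With spot position as a block it was 1.07 (adjusted p 0.000145 in limma), and over all its alternatives the adjusted p ran from 2.29e-05 to 0.00555. The higher and lower calls over all miRNAs were less stable. They were 19 and 33 after quantile normalization, 35 and 33 without normalization and 25 and 39 from the deposited signal.

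**Figure D4:**
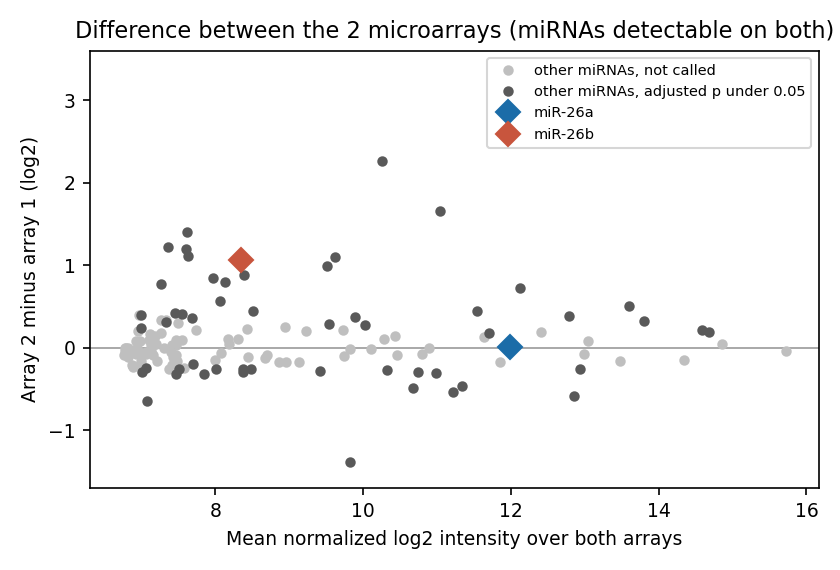
Array 2 minus array 1 (log2, after normexp and loess) against mean log2 intensity for the 137 miRNAs detectable on both microarrays, with called miRNAs, miR-26a and miR-26b marked. miR-26a lies at 0.0034 and miR-26b at 1.07, above the 20 miRNAs nearest to it in intensity.

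Blank spots differed between the chips too. The 595 empty spots had a scanner density of 310 ± 15.1 on array 2 and 227 ± 19.3 on array 1 (mean ± SD over spots). The densities of the miR-26b spots ran from 557 to 795 on array 2 and from 335 to 459 on array 1, above the 99th percentile of the empty spots (345 on array 2 and 250 on array 1). 1 empty spot of array 1 reached 575. The part of the background in the difference for miR-26b was not tested beyond the alternatives above.

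The 2 platforms placed the members at somewhat different ranks. Over the 86 mouse miRNAs detectable on both, log2 signal fell with ΔCt, with Pearson's r of -0.42 and Spearman's rho of -0.47 as a description across miRNAs, which share the RNA sample and are not replicates. The least-squares line had a slope of -0.43 (SE 0.10) and a residual SD of 2.56. Among the 86 miR-26a ranked 20 by ΔCt and 14 by signal, and miR-26b ranked 36 by ΔCt and 45 by signal.

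miR-26a lay above the line and miR-26b below it. The log2 signal of miR-26a was 11.97 against 9.52 on the line, a residual of 2.45 (5.48-fold), the 16th highest. That of miR-26b was 7.99 against 9.02 on the line, a residual of -1.03 (2.04-fold), the 30th lowest. Both residuals were within 1 residual SD (0.958 and -0.401 of it). For each array alone the line was fitted again, over the miRNAs detectable on Array A and on that array. The residual of miR-26b was then -0.34 on array 2 alone and -1.53 on array 1 alone, so its size rested on array 1. That of miR-26a was 2.52 on array 2 alone and 2.53 on array 1 alone. Probe brightness and assay efficiency differ between miRNAs and were not calibrated here, so no ratio of miR-26a to miR-26b was taken from the microarray.

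**Figure D5:**
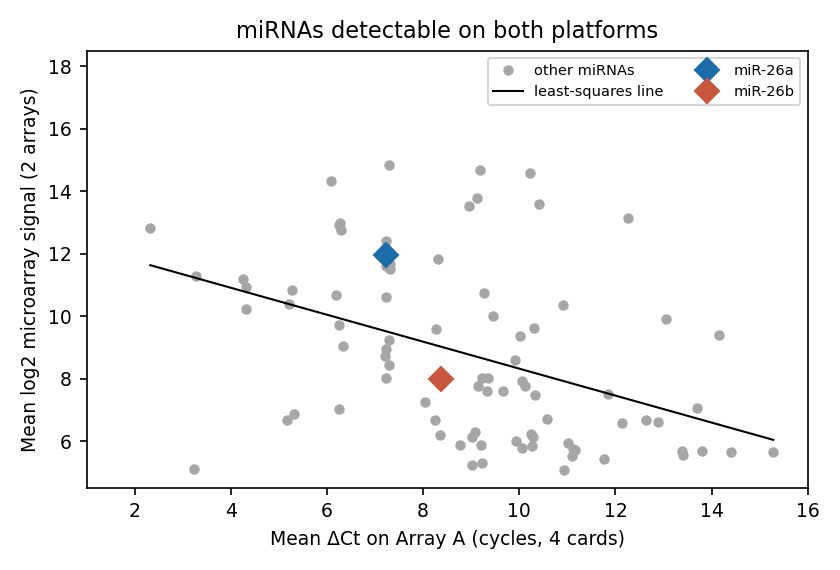
Mean log2 microarray signal against mean ΔCt of Array A (cycles, lower means more template) for the 86 mouse miRNAs detectable on both, with the least-squares line. miR-26a is 2.45 above the line and miR-26b 1.03 below it, both within the residual SD of 2.56.

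The opposite strand of the miR-26b hairpin lay close to the limit of detection on the cards without pre-amplification. Its sequence, from RefSeq (GRCm38.p6, chr1:74394360-74394381, seed in capitals), is shown because it was measured on Array B and on the microarray.
miR-26b*: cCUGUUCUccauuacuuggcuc
On Array B its Ct was 26.79 and 27.31 on the cards with pre-amplification, and 34.49 and 35.84 on the cards without it. The mean was 27.05 ± 0.37 with and 35.17 ± 0.96 without pre-amplification (SD, n = 2 cards each), and with it the strand ranked 59 of 109 detectable assays. Without it 1 card was within the limit of 35 and the other was past it, and the mean missed the limit. Relative to MammU6 the cards did not separate, with ΔCt values of 12.99 and 13.30 with pre-amplification and 12.78 and 14.17 without it. The difference in mean ΔCt was -0.33, and 0.37 when the second card without pre-amplification was left out. Matched by replicate number it was 0.21 for number 1 and -0.87 for number 2. The labels give these cards no shared day or reaction. No test was made, since the limit was applied to the mean of the cards without pre-amplification. On the microarray its mean signal was 12.6 on array 2 and 10.6 on array 1, both under the limit of 32, and its spot densities, 295 to 324 on array 2 and 222 to 246 on array 1, lay below the 99th percentile of the empty spots.

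miR-26 belongs among the miRNAs linked to myogenic differentiation, of which 25 others were listed. Array A carried 22 of the 25, and 18 were detectable. Of the 18, 6 had a lower mean Ct than miR-26a and 9 a lower mean Ct than miR-26b, so neither member stood at an extreme of the list. Between RT2 and RT1 limma called 0 of the 18, with a median difference of 0.17 cycles against 0.12 over all 182, and between days it called 0 of the 18, with a median of -0.03 against -0.01. On the microarray 24 of the 25 had probes and 16 were detectable on both arrays. limma called 7 of the 16, against 38.7% of all 137, with 3 higher and 4 lower on array 2, with a median of -0.06 against -0.01 over all 137. They were miR-125b-5p, miR-155, miR-206, miR-24, miR-27a, miR-29a and miR-486. The differences of the 16 ran from -0.58 to 0.88, below the 1.07 of miR-26b.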

How the data were processed

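All samples were aliquots of 1 RNA sample. For Array A and Array B the values deposited are raw Ct per assay, in cycles, with 40 for an undetermined well. Per the file headers the microarray files hold scanner densities (intensity), and the authors deposited background-subtracted intensity in a separate table. ΔCt was computed here as Ct minus the Ct of MammU6, and the deposited ΔCt values were not used. For differences, limma 3.58.1 (R 4.3.3) was fitted over all detectable miRNAs, on ΔCt (2 cards against 2) and on log2 spot densities after normexp (offset 50) and cyclic loess, with Benjamini-Hochberg adjustment at 0.05. The methods' t-test used a threshold of 0.01. The scripts were tested on simulated data, and ran in Python 3.11.15 with scipy 1.17.1, numpy 2.4.6, matplotlib 3.10.9 and pandas 2.3.3. Sequences, hairpins and host genes came from RefSeq (GRCm38.p6).

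The Array A cards are paired by the labels, which give a shared day or a shared reaction. Those of Array B carry only a replicate number. Deviations from the group means correlated at r = 0.026 between cards of the same day and r = 0.32 between cards of the same reaction (182 miRNAs). Array precision is limited by the number of cards, chips and spots. miRNAs were named as the members, the miR-26b* strand, the endogenous controls and the 3 mouse miRNAs most like each member in ΔCt. Neighbours in the order of Ct, the nearest microarray targets and the called miRNAs of the myogenic list were named after their values were seen. Members and lists were chosen with earlier results of these data known. Alternatives covered the control, the detection limit, the normalization, the block and leaving out each card or chip.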

Additional observations from a re-analysis of the deposited data

Results flagged for a closer look

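The sign of a difference was not the same in both strata for 3 comparisons of ΔCt. Each stratum holds 1 card per group, so the difference between strata was not tested. For miR-26b RT2 minus RT1 was 0.192 cycles on day 2 and -0.11 on day 1. For miR-26b day 2 minus day 1 was 0.229 cycles in RT2 and -0.073 in RT1. For miR-26a day 2 minus day 1 was 0.079 cycles in RT2 and -0.02 in RT1.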

How the results depend on the processing

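The Array A results rest on 4 cards, which are repeat runs of 2 reactions of 1 RNA sample. The test between microarrays rests on 5 spots per chip. The intervals therefore cover technical spread only. For RT2 minus RT1 the count of called miRNAs was 4. It was 1 with the day as a replicate block and 2 on raw Ct. With the other controls or the card mean it was 3. It was 5 with no limit on the mean Ct, 0 with a limit of 30, and 0 to 1 when each card was left out in turn. The methods' t-test passed 2 at an unadjusted p under 0.01, and 0 after Benjamini-Hochberg adjustment at 0.05. For day 2 minus day 1 the count was 0, and 0 with the reaction as a replicate block. When each card was left out it was 0 to 1, the 1 coming without the RT2 card of day 1. Here the methods' t-test passed 1 at its own threshold and 0 after adjustment. With the block the adjusted p in limma was 0.948 for both members between reactions and 0.996 for both between days, so no call on a member changed. Over all alternatives it ran from 0.548 to 0.997 for miR-26a and 0.834 to 0.997 for miR-26b between reactions, and from 0.776 to 0.999 for miR-26a and 0.890 to 0.999 for miR-26b between days. For microarray 2 minus microarray 1 the count was 53, and 25 with a signal limit of 500, which left 43 miRNAs and excluded miR-26b.

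Differences that changed sign were all uncalled. For miR-26b RT2 minus RT1 was 0.04 cycles, against -0.038 on raw Ct, -0.16 with the other controls, -0.068 with the card mean, and -0.0735 to 0.16 when a card was left out. Day 2 minus day 1 for miR-26a was 0.03 cycles, against -0.013 with the other controls and -0.12 to 0.18 when a card was left out. For miR-26b it was 0.08 cycles, and -0.018 to 0.17 when a card was left out. For miR-26a microarray 2 minus microarray 1 was 0.0034 in log2, against -0.22 after quantile normalization and -0.10 without normalization. It was -0.062 from the deposited background-subtracted signal, and -0.11 from that signal without normalization, an alternative chosen after seeing the data. The cause of these changes was not tested. Spot position as a block, also chosen after seeing the data, gave 70 calls.

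The residual of miR-26a from the platform line was 2.45, against 2.09 from normexp signals, and 2.45 to 2.53 when a card or microarray was left out. Each such line was fitted again over the miRNAs then detectable. In ranks the residuals were 18.4 for miR-26a and -5.03 for miR-26b. On the log2 scale that of miR-26b was -1.03, and -1.53 to -0.34 when one was left out. The SD of miR-26a between cards was 0.121 and ran from 0.0515 to 0.148 when a card was left out. The difference of miR-26b* with minus without pre-amplification was -0.33 in ΔCt, -8.12 on raw Ct, and -1.03 to 0.37 when a card was left out. With cards matched by replicate number its mean is -0.33 by construction. The planned tests of miR-26b* in limma and by the t-test were not run, since its mean Ct without pre-amplification missed the limit. The miR-26a minus miR-26b difference of -1.15 ran from -1.21 to -1.11 when a card was left out. With each reaction as 1 value, an alternative chosen after seeing the data, it was -1.15 with an interval that includes 0.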
